A study of Mus musculus with 25 samples.

Results

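The 45 genes described here encode the ligands, receptors, extracellular regulators and Smad proteins of the TGF-beta, BMP and activin branches of one signalling family. They were chosen by symbol, with earlier results of these data known. Every listed symbol matched 1 of the 24984 genes in the deposited table of raw read counts. They comprise 13 ligands or ligand subunits, 4 latent TGF-beta binding proteins with the protease Bmp1, 12 receptors and coreceptors, 6 extracellular antagonists or follistatin-like proteins, 7 Smads and the target genes Id1 and Id2. RNA was sequenced from cultures of BMEL cells, bipotential progenitors isolated from embryonic mouse liver (C57BL/6 x C3H), and from cells sorted out of tumours that grew in athymic nude mice, which lack T cells. The cultures were BMEL WT (empty vector in the labels), RasLOW and RasHIGH, 3 each. RasLOW and RasHIGH came from 1 clonal parental line, transduced with a bicistronic vector carrying human HRasG12V and a Venus or mCherry fluorescent protein and sorted for weak or strong fluorescence, and the study states that their Ras levels overlap. The sorted cells were GFP-positive tumour cells and GFP-negative stromal cells from the liver tumour and the peritoneal tumour of each of 4 mice, hence 16 libraries in 4 groups. The labels do not say which Ras population was injected, and tumour cells and stroma differ in strain as well as in cell type. Cultures were growing exponentially on collagen, and no group received a drug.

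TGF-beta ligands are secreted in a latent complex with a binding protein, and once released they signal through Tgfbr2 and Tgfbr1 to Smad2 and Smad3. Activins, which are dimers of inhibin beta subunits, use activin receptors and the same Smads, whereas BMPs signal through Bmpr1a, Bmpr1b, Acvr1 or Acvrl1 to Smad1 and Smad5. Smad4 is shared, Smad6 and Smad7 are feedback inhibitors, and noggin, chordin, gremlin and follistatin bind ligands outside the cell. In liver the family is known for growth restraint of epithelial cells, for fibrosis and for control of iron through BMPs made by sinusoidal endothelium.

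Total counts lay between 20818989 and 51241336 per library, so that 3 counts corresponded to between 0.0576 and 0.141 CPM (counts relative to the library total, scaled by TMM factors over all 25 libraries). Such floors cover counting error only. Values below are CPM in each library, in the order of replicate or mouse number, and means are given ± SD. Fold changes come from edgeR's quasi-likelihood test on the 2 groups compared, a gene being called at an adjusted p under 0.05 over all genes tested. The p-values measure the spread between these cultures or between libraries of sorted cells. In the main fits sorted libraries are taken as unpaired, although they share mice, and the mouse as a block is an alternative. The row of mouse Hras did not check the labels, since the transgene is a human cDNA: it held 82.9, 87.2 and 71.3 CPM in BMEL WT, 102, 47.1 and 86.4 in RasLOW and 50.6, 80.0 and 71.5 in RasHIGH. A list of 6 hepatoblast and biliary epithelial markers summed to between 7065 and 11259 CPM in every library of cultures and tumour cells, although Epcam, one of the 6, was below 0.2 CPM on average in all of these groups but BMEL WT. In stroma the same list summed to between 698 and 1621 CPM. Fibroblast markers (8 genes) summed to between 4126 and 8361 CPM in liver stroma and between 54717 and 83133 CPM in peritoneal stroma. In tumour cells they reached at most 62.6 CPM in the liver and between 220.3 and 1523 CPM in the peritoneum, the highest value being that of mouse 1. That library also held 172 CPM of 5 leukocyte markers, against 20.1 to 35.6 CPM in the other 7 tumour cell libraries. Lane codes in the labels put BMEL WT 1 and 2 on lane 3 and all other cultures on lane 4, so lane and group cannot be fully told apart in the comparisons with BMEL WT.

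**Figure D1:**
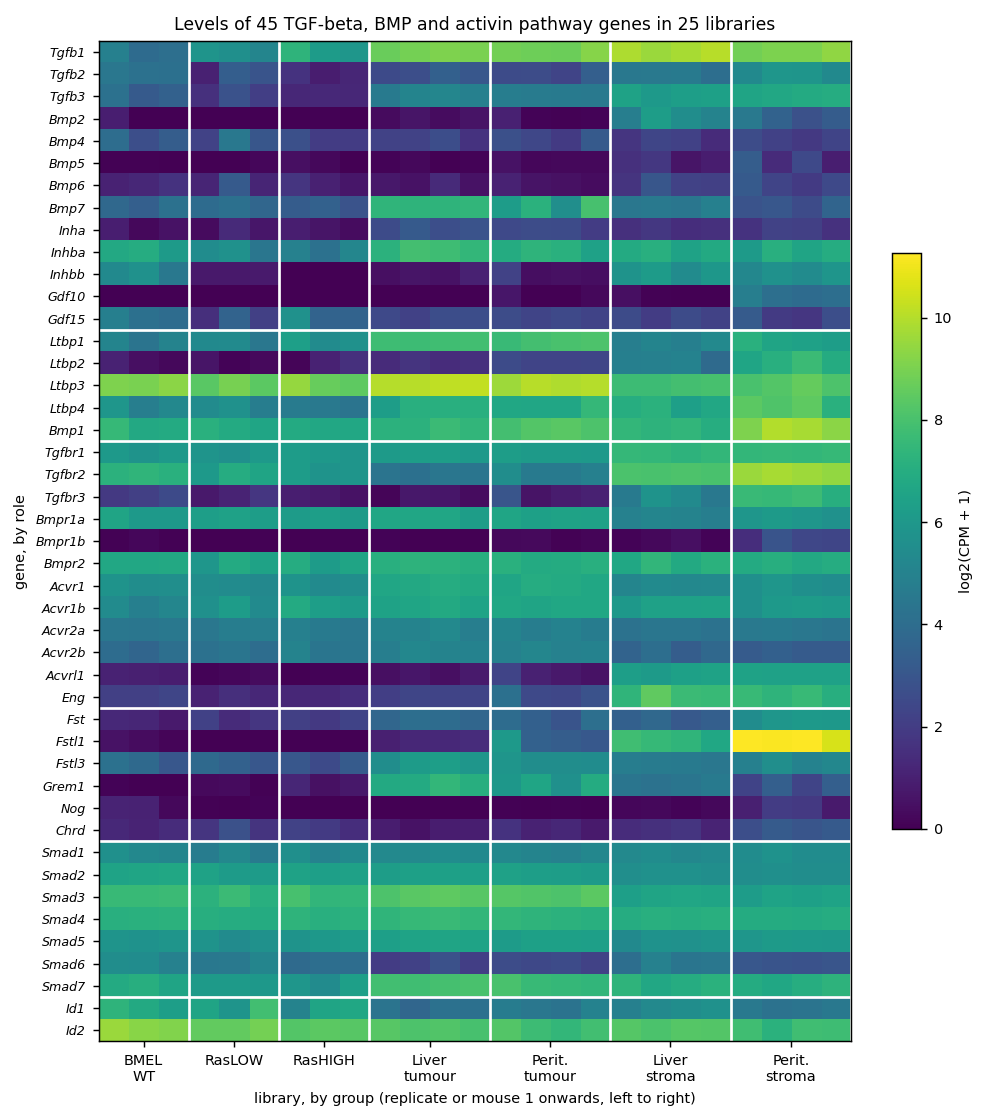
Level of each of the 45 genes (rows, grouped by role) in each of the 25 libraries (columns, grouped by condition), as colour on a log2(CPM + 1) scale. Tgfb1, Bmp7 and Grem1 are brighter in tumour cells than in cultures, Inhbb is dark in Ras cultures and tumour cells, and Fstl1 is brightest in peritoneal stroma.

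Upstream sequences are shown for 6 members on which the results below turn, so that the regions in front of genes that moved in opposite directions can be read side by side. They come from RefSeq on build GRCm38.p6, in which 33 of the 45 members had an entry, while the gene positions given further on are those of mm9. The 250 bases before the start are printed 5′ to 3′, with capitals marking 3 motifs found on either strand: GGCGCC, a GC-rich Smad-binding sequence, CAGACA, the core of the TGF-beta responsive CAGA box, and GGGCGG, the GC box of Sp1 and KLF factors.
Tgfb1, chr7:25686752-25687001, plus strand: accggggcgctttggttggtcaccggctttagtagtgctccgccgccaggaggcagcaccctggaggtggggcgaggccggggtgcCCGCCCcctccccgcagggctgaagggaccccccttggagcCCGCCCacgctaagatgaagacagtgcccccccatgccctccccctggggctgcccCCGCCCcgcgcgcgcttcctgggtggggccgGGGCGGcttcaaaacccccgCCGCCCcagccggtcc
Tgfb2, chr1:186705990-186706239, minus strand: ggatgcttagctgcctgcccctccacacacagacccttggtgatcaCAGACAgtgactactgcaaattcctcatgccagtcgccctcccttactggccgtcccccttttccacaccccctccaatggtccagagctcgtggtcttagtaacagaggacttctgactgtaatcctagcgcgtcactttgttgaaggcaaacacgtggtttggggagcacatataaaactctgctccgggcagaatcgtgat
Inhbb, chr1:119422249-119422498, minus strand: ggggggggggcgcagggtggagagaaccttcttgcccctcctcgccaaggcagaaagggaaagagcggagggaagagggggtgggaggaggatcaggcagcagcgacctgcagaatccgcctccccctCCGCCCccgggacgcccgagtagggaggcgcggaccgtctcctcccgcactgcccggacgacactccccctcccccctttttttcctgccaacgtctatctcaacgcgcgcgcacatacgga
Grem1, chr2:113758649-113758898, minus strand: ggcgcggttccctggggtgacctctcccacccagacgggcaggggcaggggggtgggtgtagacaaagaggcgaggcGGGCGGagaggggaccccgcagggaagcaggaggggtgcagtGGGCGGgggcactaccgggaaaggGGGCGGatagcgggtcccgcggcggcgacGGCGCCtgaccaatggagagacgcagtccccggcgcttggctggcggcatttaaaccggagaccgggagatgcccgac
Smad6, chr9:64022060-64022309, minus strand: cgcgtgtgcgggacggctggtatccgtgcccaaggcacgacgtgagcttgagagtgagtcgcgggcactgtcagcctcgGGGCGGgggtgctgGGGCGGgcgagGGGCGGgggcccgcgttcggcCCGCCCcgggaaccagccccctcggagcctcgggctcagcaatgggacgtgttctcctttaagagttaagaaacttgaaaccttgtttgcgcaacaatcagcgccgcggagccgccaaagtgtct
Id2, chr12:25096093-25096342, minus strand: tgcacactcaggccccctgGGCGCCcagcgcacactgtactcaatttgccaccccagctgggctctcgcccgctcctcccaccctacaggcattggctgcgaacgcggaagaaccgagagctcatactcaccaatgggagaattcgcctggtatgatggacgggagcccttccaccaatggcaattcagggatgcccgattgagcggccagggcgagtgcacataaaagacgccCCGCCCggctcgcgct

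The Tgfb1 window held 5 matches to the GC box and none to the other motifs, while that of Tgfb2 held 1 CAGACA and no GC box. Grem1 and Id2 each held 1 GGCGCC, beside 3 and 1 GC boxes. Smad6 had 4 GC boxes and Inhbb 1. Both strands were searched, and matches of different motifs may share bases. Over 32536 distinct windows of this length in the mouse genome, GGCGCC occurred in 9.65%, CAGACA in 17% and GGGCGG in 33%. Among the 33 members with an entry, 8, 6 and 23 had at least 1 match in any of their windows. Members were counted by gene and the genome shares by window, so they are not on the same unit. A match describes the sequence and does not show binding.

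Ligand levels can be set against each other only per length of transcript. Per kilobase of exon, Inhba, the subunit of activin A, was the highest ligand in BMEL WT at 51.0 CPM per kb, ahead of Gdf15 (10.7), Inhbb (8.83) and Tgfb1 (7.81). In RasHIGH the order was led by Tgfb1 (38.0 CPM per kb), followed by Inhba (13.8) and Gdf15 (12.9). Tgfb1 was also the highest ligand per kb in every sorted group, at 190.2 in liver tumour cells, 188 in peritoneal tumour cells, 355 in liver stroma and 215 in peritoneal stroma. Inhba came next in each of these groups, and the third place was held by Bmp7 in tumour cells and by Tgfb3 in stroma. These orders are descriptions of group means.

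The first comparison asks how the pathway differed between BMEL WT and cells with a high dose of oncogenic Ras. In RasHIGH, Tgfb1 was higher and Tgfb2, Tgfb3 and both activin beta subunits were lower, so the 3 TGF-beta isoforms did not move together. The receptors Tgfbr2, Tgfbr3, Acvrl1 and Eng, the inhibitory Smads Smad6 and Smad7 and the target Id2 were also lower, and the receptor Acvr1b and the antagonists Fst and Grem1 were higher. Of the 45 members 39 had enough counts to be tested, of which 4 (10.3%) were higher, against 10.9% of all genes, and 11 (28.2%) were lower, against 11.7%. The median log2 fold change of the members was -0.24, that of all genes -0.02. Bmp2, Bmp5, Gdf10, Bmpr1b, Fstl1 and Nog had too few counts to be tested. Inhbb and Acvrl1 met the minimum count for testing only through BMEL WT, and Grem1 only through RasHIGH.

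Inhbb (chr1:121312042-121318825 on mm9, the genome the study names) encodes the beta B subunit of activin B. It stood at 39.4, 51.3 and 22.0 CPM in BMEL WT, at 0.719, 0.689 and 0.77 CPM in RasLOW and at 0 counts in all 3 RasHIGH cultures. Against the floor of 3 counts per library the RasHIGH level was at least 278-fold lower than that of BMEL WT (adjusted p = 0.00081, edgeR). The level in RasLOW was 52.7-fold lower (log2 fold change -5.72, SE 0.37, adjusted p = 0.00218), and no culture of 1 group overlapped another. Inhba, the beta A subunit, held 109, 125 and 68.5 CPM in BMEL WT and 29.8, 17.5 and 34.9 CPM in RasHIGH, a 3.78-fold decrease (log2 fold change -1.92, SE 0.31, adjusted p = 0.00624).

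Tgfb1 (chr7:26472021-26490096) held 29.0, 14.5 and 16.4 CPM in BMEL WT, 55.4, 48.2 and 33.5 CPM in RasLOW and 161, 71.6 and 59.0 CPM in RasHIGH. Every RasHIGH culture lay above every RasLOW culture, and every RasLOW culture above every BMEL WT culture. The difference between RasHIGH and BMEL WT was 4.70-fold (log2 fold change 2.23, SE 0.44, adjusted p = 0.0122), and that between RasLOW and BMEL WT missed the threshold (1.16, adjusted p = 0.0755). Tgfb2 (chr1:188447065-188529871) held 21.2, 17.3 and 16.7 CPM in BMEL WT, 1.08, 9.28 and 6.65 CPM in RasLOW and 2.16, 0.861 and 1.31 CPM in RasHIGH. RasLOW overlapped RasHIGH here through its culture 1, and all Ras cultures lay below BMEL WT. Tgfb2 was 13.0-fold lower in RasHIGH than in BMEL WT (log2 fold change -3.70, SE 0.34, adjusted p = 0.000758). Tgfb3 (chr12:87397694-87419991) fell from 17.4, 8.06 and 10.4 CPM to 1.36, 1.46 and 1.35 CPM, by 8.80-fold (log2 fold change -3.14, SE 0.34, adjusted p = 0.00141), and the RasLOW cultures lay between these groups at 1.94, 6.07 and 3.24 CPM. Ltbp1 to Ltbp4 and Bmp1 were not called in either Ras population. Gdf15, a stress-induced member of the family, held 28.3, 16.6 and 14.8 CPM in BMEL WT, 1.87, 11.2 and 3.40 CPM in RasLOW and 50.1, 10.9 and 10.8 CPM in RasHIGH, overlapping groups that gave no call. Bmp4, a ligand of the BMP receptors, missed the threshold in RasHIGH (-1.40, adjusted p = 0.0595).

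**Figure D2:**
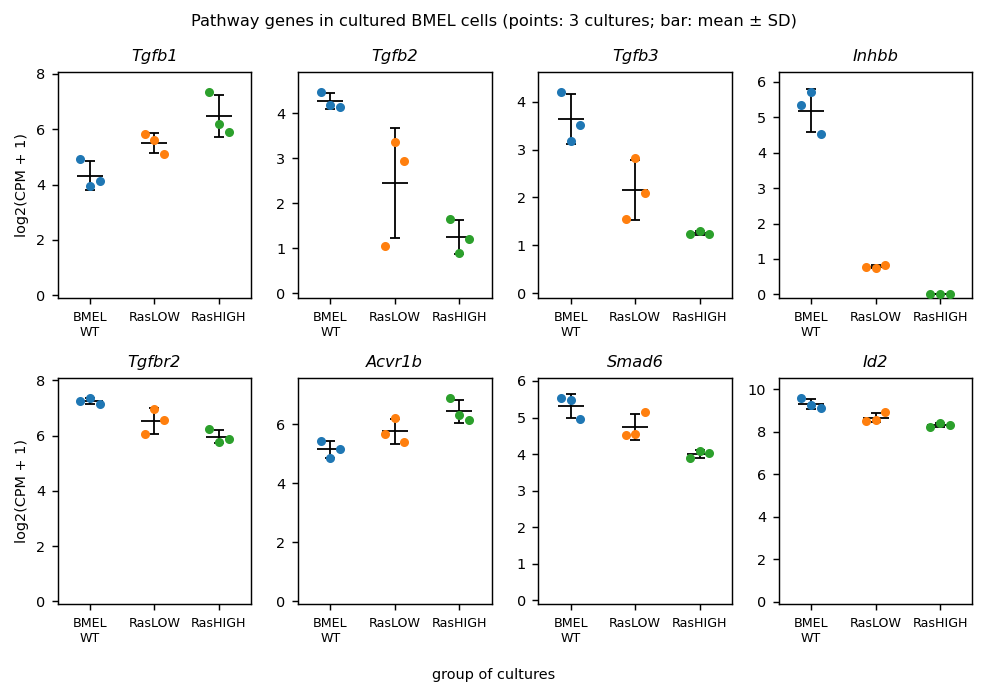
Levels of 8 members in the cultures, as log2(CPM + 1), with 1 point per culture and a bar for the mean ± SD of 3 cultures on that scale. Tgfb1 and Acvr1b are highest in RasHIGH, the other 6 genes are highest in BMEL WT, and all RasHIGH points of Inhbb are at 0.

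Among the receptors, Tgfbr2, the type II receptor for TGF-beta, held 151, 162 and 142 CPM in BMEL WT and 74.2, 54.0 and 57.8 CPM in RasHIGH. It was 2.51-fold lower in RasHIGH (log2 fold change -1.33, SE 0.15, adjusted p = 0.00143), whereas its partner Tgfbr1 differed by a log2 fold change of 0.02 and was not called. Tgfbr3, the coreceptor betaglycan, held 2.65, 3.37 and 4.74 CPM in BMEL WT and 0.947, 0.775 and 0.451 CPM in RasHIGH, a 5.04-fold decrease (log2 fold change -2.33, SE 0.39, adjusted p = 0.00656). Endoglin (Eng), a coreceptor best known from endothelium, was low throughout at 3.35, 3.37 and 4.07 CPM in BMEL WT and 1.36, 1.38 and 1.80 CPM in RasHIGH (log2 fold change -1.28, SE 0.27, adjusted p = 0.015). Acvrl1, the endothelial type I receptor, fell from 0.966 to 0.0588 CPM on average, from 82 to 4 counts in all (adjusted p = 0.00641). Acvr1b, the type I receptor for activin, moved the other way, from 42.1, 28.0 and 34.7 CPM to 116, 77.6 and 69.3 CPM (log2 fold change 1.28, SE 0.23, adjusted p = 0.00941). Of the BMP receptors, Bmpr1a, Bmpr2 and Acvr1 had log2 fold changes of -0.09, -0.18 and -0.08 and none was called. The endothelial marker list was near 0 in the cultures that carried most Eng and Acvrl1, at 0.444 to 0.482 CPM in BMEL WT, and reached 6.00 to 10.7 CPM in RasHIGH, where 4 of its 5 genes were below 0.2 CPM.

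Follistatin (Fst), which binds activins, held 1.47, 1.31 and 0.74 CPM in BMEL WT and 3.41, 2.67 and 3.83 CPM in RasHIGH (log2 fold change 1.45, SE 0.35, adjusted p = 0.0243). Grem1, an antagonist of BMPs, had 2, 0 and 0 counts in BMEL WT and 34, 10 and 15 counts in RasHIGH, a ratio of 34.8 with a 95% counting interval of 9.22 to 294 (adjusted p = 0.0116). Smad6, the inhibitor of the BMP branch, held 45.1, 43.3 and 29.9 CPM in BMEL WT, 22.1, 22.5 and 34.4 CPM in RasLOW and 13.9, 15.9 and 15.4 CPM in RasHIGH. RasHIGH lay below every other culture, 2.68-fold under BMEL WT (log2 fold change -1.42, SE 0.20, adjusted p = 0.0032). Smad7, which inhibits both branches, fell from 117, 133 and 93.6 CPM to 60.2, 41.7 and 80.8 CPM (log2 fold change -0.95, SE 0.25, adjusted p = 0.0361). None of the signal-transducing Smads (Smad1 to Smad5) was called. Id2, a helix-loop-helix inhibitor of differentiation, fell from 764, 607 and 562 CPM to 301, 345 and 322 CPM (log2 fold change -1.03, SE 0.16, adjusted p = 0.00459). Its relative Id1, the classical BMP target, was not called, with 158, 115 and 77.9 CPM in BMEL WT, 93.9, 55.9 and 229 CPM in RasLOW and 31.6, 94.6 and 103 CPM in RasHIGH. Noggin, which binds BMPs, was not tested, but its counts were 34, 32 and 5 in BMEL WT, 1, 0 and 2 in RasLOW and 0 in every RasHIGH culture, at least 6.10-fold lower in RasHIGH than in BMEL WT.

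In RasLOW the called members were 3 of the 38 tested, all lower than in BMEL WT (7.89%, against 4.05% of all genes), and 0 were higher (against 1.92% of all genes). These were Inhbb, Acvrl1 (-2.71, adjusted p = 0.03) and Smad7, which held 68.6, 69.7 and 62.2 CPM (log2 fold change -0.81, SE 0.16, adjusted p = 0.0304). Acvrl1 had 12 counts in all in RasLOW and met the minimum count for testing only through BMEL WT. All comparisons with BMEL WT share its 3 cultures, so the values of both Ras populations are given side by side and not as independent evidence. For Tgfb2, Tgfb3, Inhba and Tgfbr2 the log2 fold changes in RasLOW were -1.71, -1.69, -1.41 and -0.71 and were not called, against -3.70, -3.14, -1.92 and -1.33 in RasHIGH. Between RasHIGH and RasLOW themselves 0 of 38 members were called by edgeR in either direction, with backgrounds of 0.0585% higher and 0.0167% lower, while DESeq2 called 1, Inhbb.

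With lane as a covariate, which leaves BMEL WT 3 as the only control on the lane of the Ras cultures, 5 members stayed called in RasHIGH (Inhbb, Tgfb2, Tgfb3, Tgfbr2 and Tgfbr3) and 1 in RasLOW (Inhbb). The other 10 calls in RasHIGH were lost, with adjusted p-values from 0.059 to 0.387 and with the direction kept. With lane the log2 fold changes were larger for Tgfb1 (2.51), Fst (2.11) and Eng (-1.47), 1.29 for Acvr1b, and smaller for Smad6 (-1.03), Id2 (-0.84), Inhba (-1.37), Smad7 (-0.66) and Acvrl1 (-3.85). In RasHIGH, Eng lost its call without BMEL WT 2, BMEL WT 3 or RasHIGH 2, Fst without BMEL WT 2, BMEL WT 3 or RasHIGH 3, and Smad7 without any 1 of the BMEL WT cultures or RasHIGH 2. The RasLOW count was 13 without RasLOW culture 2, 2 without BMEL WT 1 and 1 without any of the other 4 libraries, Acvrl1 and Smad7 losing their calls in each of these 5 fits (adjusted p between 0.0523 and 0.126).

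Of 81 further genes of the pathway, 42 were expressed enough to be tested in these comparisons. In RasHIGH 3 of them were higher (7.14%, against 10.9% of all genes) and 14 lower (33.3%, against 11.7%). In RasLOW 0 were higher (against 1.92%) and 6 lower (14.3%, against 4.05%). Decreases in RasHIGH included those of the BMP-responsive homeobox gene Msx2, from 12.2 ± 5.40 to 0.135 ± 0.0804 CPM (-6.45, adjusted p = 0.000566), of the transcription factor Atoh8 (-5.50, adjusted p = 0.00213), of Itgb6, a chain of an integrin that releases latent TGF-beta (-3.93, adjusted p = 0.00443), and of Hey1 (-2.80, adjusted p = 0.00723). The follistatin-like gene Fstl4 was detected in 1 of the 3 RasHIGH cultures only, against 1.15, 1.03 and 1.18 CPM in BMEL WT (adjusted p = 0.00474). The 6 in RasLOW included Fstl4 (-3.72), Msx2 (-3.42), Hey1 (-2.15) and Ankrd1 (-1.67).

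Tumour cells were then compared with the stromal cells of the same tumours, to see which compartment expresses which component. Tumour cells carried more Bmp7, Grem1, Ltbp1, Ltbp3, the activin and BMP receptors Bmpr1a, Acvr1, Acvr2a and Acvr2b and Smad3, and stroma carried more Bmp2, Inhbb, Tgfb2, Tgfb3, Fstl1, the TGF-beta receptor Tgfbr2, its coreceptors Tgfbr3 and Eng, and Acvrl1. In the liver 17 of 42 members were higher in tumour cells and 17 lower (40.5% each, against 38.4% and 39.4% of all genes). In the peritoneum 16 of 45 were higher (35.6%, against 39.5%) and 22 lower (48.9%, against 37.1%). Most genes differed between the compartments, so these counts are no result about the members, and their values are given below. In bulk samples fewer cells of a type and less RNA per cell cannot be told apart.

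Bmp7, a BMP ligand, held 165, 159.9, 160.3 and 171 CPM in liver tumour cells and 21.1, 22.6, 20.4 and 28.8 CPM in liver stroma (log2 fold change 2.80, SE 0.11, adjusted p = 6.77e-10). In the peritoneum it held 72.8, 146, 46.1 and 253 CPM in tumour cells, a wide spread, and 6.31, 7.31, 4.92 and 11.3 CPM in stroma (log2 fold change 4.18, SE 0.57, adjusted p = 0.00018). Grem1 (chr2:113586321-113598803) followed it closely, with 115, 119, 173 and 132 CPM in liver tumour cells against 19.8, 17.8, 19.5 and 23.1 CPM in their stroma (log2 fold change 2.72, SE 0.14, adjusted p = 6.31e-09). Peritoneal tumour cells held 60.4, 96.0, 49.1 and 122 CPM of Grem1 and the stroma 3.85, 9.75, 3.95 and 9.46 CPM (log2 fold change 3.67, SE 0.44, adjusted p = 8.17e-05). Neither gene overlapped between compartments at either site. The stromal mean of Grem1 was 14.9% of that of tumour cells for liver tumours and 8.23% for peritoneal tumours. For Bmp7 the shares were 14.1% and 5.75%. The summed epithelial markers in stroma were 15.4% and 8.66% of those in tumour cells, close to or above the shares of both genes. The part of epithelial RNA in the stromal values was not tested.

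On the stromal side, Bmp2 held 0.274, 0.537, 0.303 and 0.512 CPM in liver tumour cells and 26.8, 76.6, 44.7 and 31.5 CPM in liver stroma (log2 fold change -6.82, SE 0.41, adjusted p = 2.08e-08). Inhbb, at 0 in the RasHIGH cultures, was also low in tumour cells. It held 0.388, 0.565, 0.485 and 1.02 CPM in those of the liver and 3.62, 0.353, 0.422 and 0.332 CPM in those of the peritoneum, against 54.9, 72.5, 42.2 and 61.3 and 36.0, 50.0, 42.2 and 57.8 CPM in the matching stroma (-6.61 and -5.26 on the log2 scale). The highest tumour cell value belonged to mouse 1 of the peritoneum, the library with the most fibroblast and leukocyte RNA. Tgfbr2 (chr9:115993415-116084383) held 19.0, 16.6, 20.4 and 19.7 CPM in liver tumour cells and 267, 257, 274 and 259 CPM in liver stroma, a 14.2-fold difference (log2 fold change -3.83, SE 0.09, adjusted p = 9.39e-12). In the peritoneum the corresponding values were 45.4, 23.4, 22.9 and 28.8 CPM and 761, 872, 772 and 701 CPM (log2 fold change -4.62, SE 0.25, adjusted p = 1.49e-06). Tgfbr1 was also higher in stroma, but only by 2.45-fold in the liver and 2.43-fold in the peritoneum. Acvrl1 and Eng, both known from endothelial cells, were 161-fold and 60.8-fold higher in liver stroma than in liver tumour cells, and 54.2-fold and 20.4-fold higher in peritoneal stroma. Fstl1, a secreted glycoprotein of mesenchymal cells, differed by 126-fold and 90.5-fold. Over the same samples the endothelial list was 5.28-fold and 2.54-fold higher in stroma, and the fibroblast list 115-fold and 114-fold. The endothelial sum is no measure of endothelial cells alone. In RasHIGH cultures it was 6.00 to 10.7 CPM, although all its genes but Cdh5 averaged below 0.2 CPM. In tumour cells it lay between 53.2 and 236 CPM, and the part of Cdh5 there was not tested. Without peritoneal tumour mouse 1 the differences in the peritoneum were larger, at log2 fold changes of -6.95 for Inhbb, -7.87 for Tgfbr3, -6.86 for Acvrl1, -5.13 for Eng, -7.54 for Bmp2 and -7.96 for Fstl1, against -5.26, -6.23, -5.76, -4.35, -5.25 and -6.50 with it. Bmp6, the BMP of liver endothelium that controls iron, was 5.46-fold higher in liver stroma than in liver tumour cells and 7.91-fold higher in peritoneal stroma. Bmp5, whose exons overlap an antisense gene over 46.7% of their length, was also higher in stroma, at log2 fold changes of -3.91 and -3.98.

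Several receptors of the BMP and activin branch showed the opposite order with smaller differences. Bmpr1a was higher in tumour cells by 2.98-fold in liver tumours and by 1.56-fold in peritoneal ones, Acvr1 2.93-fold and 2.33-fold, and Acvr2b 2.55-fold and 3.76-fold, all called. Smad3 held 275, 327, 348 and 319.9 CPM in liver tumour cells and 80.4, 93.0, 99.3 and 95.1 CPM in liver stroma (log2 fold change 1.76, SE 0.10, adjusted p = 1.16e-08), with a log2 fold change of 1.90 in the peritoneum. Smad2, Smad4, Smad5 and Smad7 were higher in tumour cells at both sites, from 1.29-fold for Smad5 to 1.77-fold for Smad2, both in the peritoneum. Smad6 was lower in tumour cells, by 5.57-fold in the liver and 1.42-fold in the peritoneum. Ltbp1, which anchors latent TGF-beta in the matrix, held 218, 209, 221 and 233 CPM in liver tumour cells and 27.3, 32.5, 27.9 and 37.8 CPM in liver stroma (log2 fold change 2.79, SE 0.11, adjusted p = 6.62e-10). Ltbp2, which does not bind latent TGF-beta, was 13.8-fold and 32.0-fold higher in stroma. Tgfb1, the ligand with the highest level per kb in both compartments, was 1.90-fold higher in liver stroma than in liver tumour cells (log2 fold change -0.93, SE 0.12, adjusted p = 2.03e-05) and was not called in the peritoneum (-0.13, adjusted p = 0.454). Inhba was 1.67-fold higher in liver tumour cells and was not called in the peritoneum. Some called differences depended on single libraries or on the scaling. These were Fst in the liver (0.40, adjusted p = 0.0444) and Inha and Fstl3 in the peritoneum (0.75, adjusted p = 0.031 and 0.50, adjusted p = 0.0217). Each lost the call in 5 of 8 fits without 1 library, and all 3 did under RLE scaling. Of the exon length of Fstl3, 47.3% overlaps a gene on the other strand, Prss57.

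**Figure D3:**
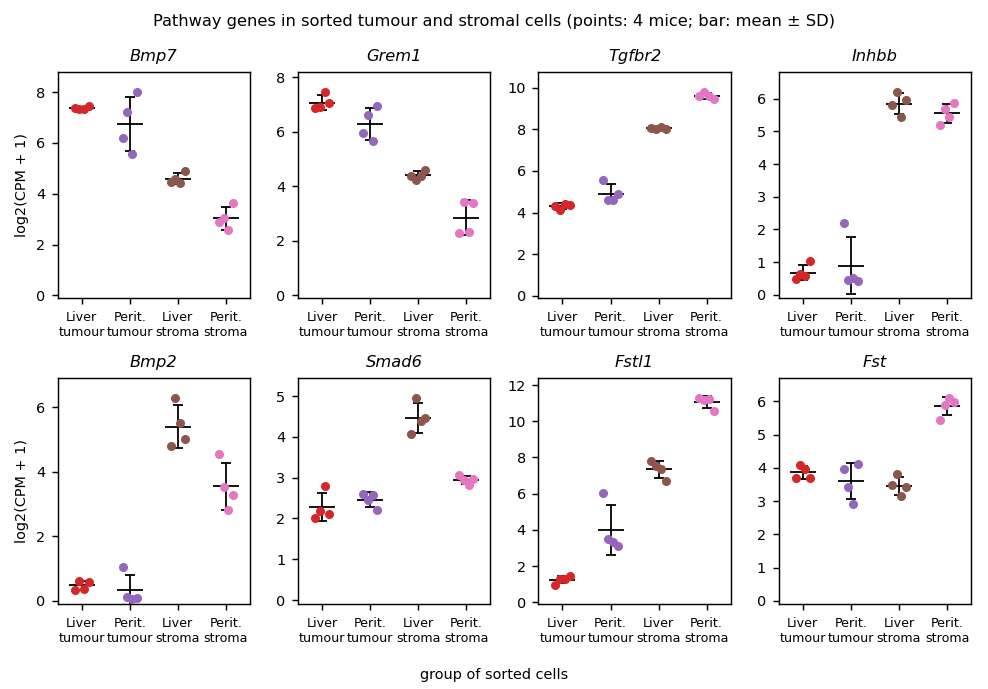
Levels of 8 members in sorted cells, as log2(CPM + 1), with 1 point per mouse and a bar for the mean ± SD of 4 mice on that scale. Bmp7 and Grem1 are highest in tumour cells, Tgfbr2, Inhbb and Bmp2 are highest in stroma, Smad6 stands out in liver stroma, and Fstl1 and Fst stand out in peritoneal stroma. Mouse 1 is the high point among peritoneal tumour cells for Inhbb and Fstl1.

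Of the other pathway genes, 23 of 54 were higher (42.6%, against 38.4% of all genes) and 25 lower (46.3%, against 39.4%) in liver tumour cells, shares near the background. In peritoneal tumour cells 16 of 58 were higher (27.6%, against 39.5%) and 32 lower (55.2%, against 37.1%). The largest log2 fold changes in the liver were those of Tgfbi (-8.57), Nrros (-7.80), Emilin1 (-7.35), Bambi (-7.34) and Dcn (-7.08), all higher in stroma. Dcn, which binds TGF-beta, is also on the fibroblast marker list, Nrros holds latent TGF-beta on macrophages, and Bambi is a decoy receptor. Leukocyte markers summed to between 3405 and 5322 CPM in stroma, and at most 172 CPM in tumour cells, and their part in these differences was not tested.

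The stroma of liver and peritoneal tumours differed in members of every role, though most ligands, receptors and Smads were not called. Peritoneal stroma carried more Tgfb2, Gdf10, all 4 latent binding proteins, Bmp1, Tgfbr2, Tgfbr3, Bmpr1a, Fst, Fstl1, Nog and Chrd, and liver stroma carried more Tgfb1, Bmp2, Bmp7, Grem1, Smad6, Id1 and Id2. Of 45 members tested, 7 (15.6%) were higher in liver stroma, against 14.9% of all genes, and 19 (42.2%) were lower, against 18.5% of all genes. The median log2 fold change was -0.29, that of all genes 0.02. Of the lower members, Gdf10, Bmpr1b and Nog had 15, 21 and 17 counts in all in liver stroma. They met the minimum count for testing only through peritoneal stroma, where they were high. Several cell type lists moved with the site. Fibroblast markers were 10.8-fold higher in peritoneal stroma and smooth muscle markers 3.47-fold higher, whereas endothelial markers were 1.81-fold, Kupffer cell markers 17.7-fold and epithelial markers 1.60-fold higher in liver stroma. Hepatocyte markers (5 genes) summed to between 24.6 and 209 CPM in liver stroma and at most 1.79 CPM in peritoneal stroma. Their part in the results below was not tested.

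Bmp2, a ligand made by liver endothelium, held 26.8, 76.6, 44.7 and 31.5 CPM in liver stroma and 22.5, 10.5, 6.03 and 8.80 CPM in peritoneal stroma (log2 fold change 1.86, SE 0.44, adjusted p = 0.00966). Bmp7 was 3.01-fold higher in liver stroma (log2 fold change 1.59, SE 0.24, adjusted p = 0.000778), as was the antagonist Grem1 (2.88-fold, log2 fold change 1.53, SE 0.31, adjusted p = 0.0044), in samples whose epithelial markers were 1.60-fold higher as well. Tgfb1 held 945, 757, 889 and 1044 CPM in liver stroma and 464, 529, 533 and 677 CPM in peritoneal stroma (log2 fold change 0.67, SE 0.14, adjusted p = 0.00444). Tgfb2 showed the reverse, with 21.9, 22.7, 23.5 and 15.5 CPM in the liver and 40.0, 60.0, 58.0 and 39.3 CPM in the peritoneum (log2 fold change -1.28, SE 0.18, adjusted p = 0.000622). Gdf10 (chr14:34736773-34749700), a divergent member of the family, had 14, 1, 0 and 0 counts in liver stroma, so that mouse 1 supplied nearly all of them, and 27.3, 16.4, 14.2 and 15.9 CPM in peritoneal stroma (log2 fold change -7.26, SE 0.64, adjusted p = 3.04e-05). The groups did not overlap for any of these 6 ligands and antagonists. Inhba and Inhbb were not called between sites, with log2 fold changes of 0.06 and 0.27.

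The latent binding proteins and the protease were all lower in liver stroma. Ltbp2 held 27.9, 28.8, 30.8 and 13.9 CPM there and 98.6, 138, 206 and 122 CPM in peritoneal stroma (log2 fold change -2.52, SE 0.29, adjusted p = 0.000148). Bmp1, which cleaves procollagens and chordin, held 177, 155, 167 and 130.2 CPM and 548, 984, 892 and 632 CPM (log2 fold change -2.33, SE 0.20, adjusted p = 2.41e-05). Ltbp1 held 27.3, 32.5, 27.9 and 37.8 CPM and 142, 95.0, 85.7 and 75.3 CPM (log2 fold change -1.71, SE 0.20, adjusted p = 0.000158). The log2 fold changes of Ltbp4 and Ltbp3 were -1.32 and -0.47. With all 25 libraries in 1 edgeR fit, Ltbp3 lost its call (adjusted p = 0.0841). So did 2 members of other roles that were lower in liver stroma, Tgfb3 (adjusted p = 0.14) and Fstl3 (adjusted p = 0.0791). Ltbp4 was the 1 called member of the 26 whose groups overlapped, its lowest peritoneal value of 139 CPM lying below the highest of the liver, 146 CPM.

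Of the 12 receptors, 5 were lower in liver stroma and 0 higher, against 18.5% and 14.9% of all genes. Tgfbr2 was 3.04-fold lower (log2 fold change -1.60, SE 0.09, adjusted p = 4.21e-06). Tgfbr3 held 23.2, 54.7, 40.8 and 21.6 CPM in liver stroma and 197, 183, 207 and 131 CPM in peritoneal stroma (log2 fold change -2.40, SE 0.30, adjusted p = 0.000267). Bmpr1b, a BMP receptor below 0.25 CPM in every library of cultures and tumour cells, held 0.0787, 0.175, 0.376 and 0.0793 CPM and 1.79, 6.61, 4.19 and 4.15 CPM (log2 fold change -4.59, SE 0.56, adjusted p = 0.000229). Bmpr1a was 1.99-fold lower in liver stroma and Acvr1 1.36-fold lower. Acvrl1 and Eng had log2 fold changes of -0.17 and 0.40 and were not called, although the endothelial list was higher in the liver.

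Among antagonists, Fstl1 (chr16:37776959-37836600) held 2451, 2341, 2411 and 1536 CPM in peritoneal stroma against 223, 184, 166 and 104 CPM in liver stroma (log2 fold change -3.74, SE 0.26, adjusted p = 7.75e-06). Its 12.9-fold ratio of mean levels stood near the 10.8-fold ratio of the fibroblast list. Fst held 10.1, 12.9, 7.93 and 9.64 CPM and 42.8, 58.5, 67.2 and 62.9 CPM (log2 fold change -2.56, SE 0.18, adjusted p = 9.67e-06), and chordin 1.73, 1.96, 2.29 and 1.19 CPM and 5.60, 8.39, 6.79 and 8.14 CPM (log2 fold change -2.05, SE 0.23, adjusted p = 0.000151). Noggin was low in both, at 0.143 ± 0.0572 CPM in liver stroma and 1.84 ± 1.13 CPM in peritoneal stroma (log2 fold change -3.70, SE 0.57, adjusted p = 0.000955). Grem1 was the antagonist with the opposite sign. Smad6 held 15.8, 29.8, 19.8 and 20.9 CPM in liver stroma and 7.36, 6.65, 6.10 and 6.86 CPM in peritoneal stroma (log2 fold change 1.63, SE 0.19, adjusted p = 0.000161). Id1 held 29.0, 38.2, 45.4 and 51.0 CPM and 22.5, 18.2, 19.4 and 21.6 CPM (log2 fold change 0.95, SE 0.16, adjusted p = 0.0016), and Id2 differed by 1.44-fold (log2 fold change 0.52, SE 0.14, adjusted p = 0.0151). Of a separate list of 8 BMP response genes, 6 were tested, and 0 were higher and 3 lower in liver stroma (Msx1, -3.26, adjusted p = 7.47e-06, Atoh8, -2.31, adjusted p = 0.000361, and Hey1, -1.06, adjusted p = 0.013). The shares of all genes were 14.9% higher and 18.5% lower. These 3 had the opposite sign to the members Smad6, Id1 and Id2. The other 3 tested genes of that list had the same sign as Smad6, Id1 and Id2 and were not called. Of the other pathway genes 5 of 59 were higher in liver stroma (8.47%, against 14.9% of all genes) and 25 lower (42.4%, against 18.5%), led by Chrdl1 (-5.77, adjusted p = 0.000212), Rgma (-4.58, adjusted p = 4.98e-06), Dcn (-3.59, adjusted p = 2.5e-05), Bmp3 (-3.34, adjusted p = 0.00136) and Bmper (-3.32, adjusted p = 7.06e-05).

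Tumour cells of the 2 sites differed in few members. Of 40 tested, 0 were higher in liver tumour cells (against 1.33% of all genes) and 3 lower (7.5%, against 1.87% of all genes). Bmp1 held 149.6, 150.3, 205 and 169 CPM in the liver and 234, 301, 333 and 273 CPM in the peritoneum (log2 fold change -0.77, SE 0.13, adjusted p = 0.0178). Ltbp2 held 1.62, 2.26, 1.73 and 1.92 CPM and 4.87, 3.91, 3.96 and 4.10 CPM (log2 fold change -1.17, SE 0.21, adjusted p = 0.0222), and Fstl1 0.958, 1.41, 1.45 and 1.70 CPM and 65.7, 10.3, 8.87 and 7.49 CPM (log2 fold change -4.09, SE 0.75, adjusted p = 0.0243). Groups did not overlap for these 3 genes. Mean levels in peritoneal stroma were 2.68-fold those of peritoneal tumour cells for Bmp1, 33.6-fold for Ltbp2 and 94.6-fold for Fstl1. The mean sum of fibroblast markers was 10.9-fold higher in peritoneal than in liver tumour cells. This mean was raised by peritoneal mouse 1 at 1523 CPM, and the medians were 333.8 CPM in the peritoneum and 58.5 CPM in the liver. The part of fibroblast RNA in these differences was not tested. With the mouse as a block, since both tumours came from the same animals, 1 of the 3 stayed called, Bmp1, and Ltbp2 and Fstl1 had adjusted p-values of 0.0778 and 0.0715. Without peritoneal mouse 1 the log2 fold change of Fstl1 was -2.70, and 5 members were called, with Id2 and Smad7 added. The count fell to 0 without liver mouse 2 or 4 and to 1 without liver mouse 3. Bmp7 and Grem1 were not called between sites in tumour cells, at log2 fold changes of 0.34 and 0.71. Among 47 other pathway genes, 2 were higher in liver tumour cells (4.26%, against 1.33% of all genes), among them Smurf2 (0.41, adjusted p = 0.0339), and 1 was lower (2.13%, against 1.87%), Lrrc32 (-2.71, adjusted p = 0.0397).

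Whether the site difference itself differed between tumour cells and stroma was tested as an interaction over the 16 sorted libraries, the value being the liver over peritoneum log2 fold change in tumour cells minus that in stroma. This value was called above 0 for 12 of 45 members (26.7%, against 6.79% of all genes) and called below 0 for 3 (6.67%, against 7.5%). Whether called or not, it was positive for 27 members and negative for 18. The median was 0.28 for the members and -0.12 for all genes. The largest positive value was that of Fst (log2 fold change 2.68, SE 0.34, adjusted p = 0.000136): it was called in stroma, while its tumour cells held 12.0, 15.9, 14.7 and 12.0 CPM in the liver and 14.8, 9.84, 6.55 and 16.3 CPM in the peritoneum, which overlap. Ltbp1 (1.49), Bmp1 (1.47), Tgfb2 (1.42), Ltbp2 (1.27), Bmpr1a (0.98) and Tgfbr2 (0.84) also had called values above 0 and were lower in liver than in peritoneal stroma. In tumour cells the mean levels of Tgfb2 and Bmpr1a were slightly higher in the liver (6.85 against 5.89 CPM and 93.6 against 88.7 CPM), and neither was called. Smad6 (log2 fold change -1.92, SE 0.31, adjusted p = 0.000769), Id1 (log2 fold change -1.58, SE 0.26, adjusted p = 0.000914) and Tgfb1 (log2 fold change -0.75, SE 0.20, adjusted p = 0.0198) had the opposite sign. All 3 were higher in liver stroma, and in tumour cells their site differences were -0.21, -0.55 and 0.01 on the log2 scale, none called. For Fstl1, Tgfbr3, Bmp7 and Grem1 no difference between the 2 site effects was called (adjusted p = 0.769, 0.934, 0.123 and 0.194). With all 25 libraries in 1 fit 7 of the 15 calls remained, and the adjusted p was 0.0657 for Id1, 0.0721 for Fstl3, 0.127 for Tgfb2, 0.132 for Ltbp3, 0.159 for Tgfb3, 0.195 for Ltbp2, 0.209 for Smad1 and 0.258 for Tgfb1. Without single libraries 5 calls were lost. Tgfb1 lost its call without peritoneal stroma of mouse 1, 2 or 3 (adjusted p up to 0.0651), Tgfbr2 without liver tumour cells of mouse 4, peritoneal tumour cells of mouse 2, liver stroma of mouse 4 or peritoneal stroma of mouse 2 (up to 0.0554), and Ltbp2 without liver tumour cells of mouse 2 (0.0599). Ltbp3 lost it without liver tumour cells of mouse 4 or liver stroma of mouse 1 or 2 (up to 0.0637), and Smad1 in 9 of the 16 fits without 1 library (up to 0.0817). The interaction shares its libraries with the comparisons above and is not independent of them.

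**Figure D4:**
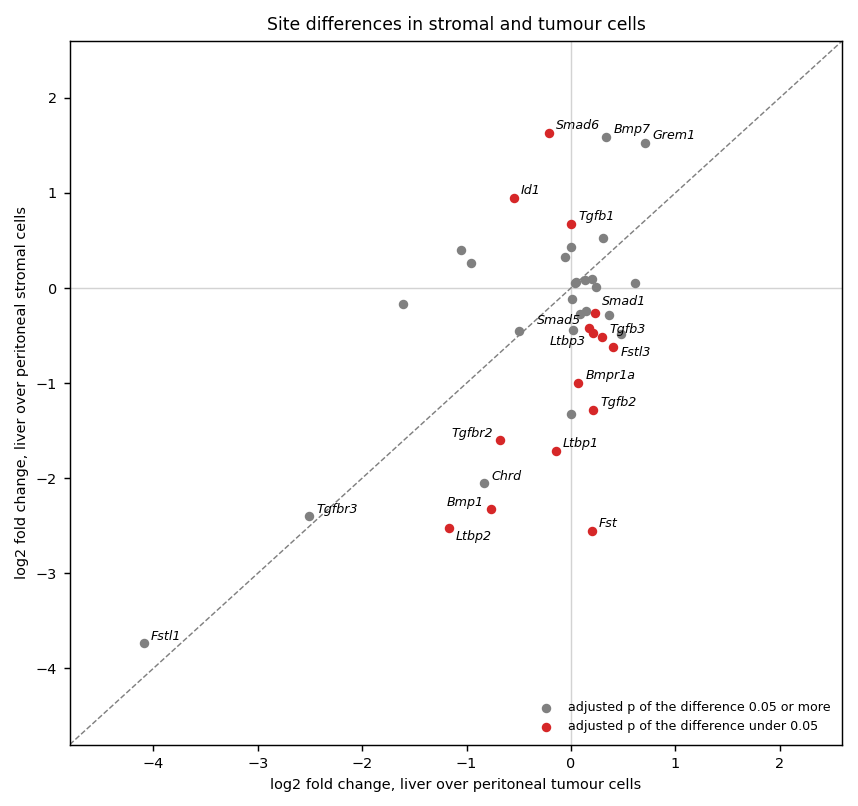
Liver over peritoneum log2 fold change in stromal cells (vertical axis) against that in tumour cells (horizontal axis) for the 40 members tested in both, with the dashed line marking equal differences. Red points are the 15 members with a called interaction. Of these, 12 lie below the line, Smad6, Id1 and Tgfb1 lie above it, and Fstl1 and Tgfbr3 lie near the line.

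Cultures and tumour cells were prepared differently, and growth in the animal, dissociation, sorting and sequencing lane cannot be told apart between them, so their levels are only set side by side. Grem1 averaged 0.0233 CPM in BMEL WT, 0.173 in RasLOW and 0.798 in RasHIGH, and 135 and 82.0 CPM in liver and peritoneal tumour cells. Bmp7 averaged between 8.39 and 14.4 CPM in the cultures and 164 and 129.6 CPM in tumour cells. Tgfb1, at most 29.0 CPM in BMEL WT, averaged 97.2 CPM in RasHIGH and 486 CPM in liver tumour cells. Tgfbr2 ran the other way, from 152 and 62.0 CPM in BMEL WT and RasHIGH to 18.9 CPM in liver tumour cells, and so did Smad6, from 39.4 and 15.1 to 3.95 CPM, and Id1, from 117 and 76.5 to 16.4 CPM. Tgfb3 and Inhba did not keep the order of the cultures: Tgfb3 held 12.0, 1.39 and 30.0 CPM and Inhba 101, 27.4 and 194 CPM in the same groups. Inhbb stayed low in both, at 0.726 CPM in RasLOW, 0 in RasHIGH and 0.615 CPM in liver tumour cells.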

How the data were processed

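RNA was sequenced from 9 cultures and 16 sorted cell samples with a poly(A) library kit. The authors deposited raw read counts per gene in 1 table, whose 25 columns all matched a labelled sample. The study's methods name TopHat2 and the mm9 genome, while the submitters' processing notes list mm8, mm10 and Bowtie 0.12.2. The counting program, annotation and strand setting are not given in the sources used here. Gene positions and exon lengths are those of the reference annotation on mm9. 30 rows without an Entrez identifier held none of the 45 genes.

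Each comparison was fitted with edgeR 4.0.16 (R 4.3.3, limma 3.58.1) on the counts of its 2 groups alone, with filterByExpr at a minimum count of 10, TMM factors, the quasi-likelihood F-test and Benjamini-Hochberg adjustment over all genes tested, with no covariate. The SE is the size of the log2 fold change divided by the square root of F. Levels are CPM with TMM factors over all 25 libraries, so their ratios can differ slightly from fitted folds. CPM per kb uses the union of exons. The members and lists were chosen with earlier results of these data known. Values per library are given for called members of each role with the largest changes and at least 100 counts, and for at most 5 other pathway genes a comparison. All other members, and genes under 100 counts, were named after their values were seen. The scripts were tested on simulated data. Alternatives were DESeq2 1.42.0, RLE factors, other filters, the study's own thresholds, all libraries in 1 fit, lane as a covariate, each library left out and a block. The study's thresholds were applied to the edgeR fits as an absolute log2 fold change over 1.5 and an unadjusted p under 0.01 in cultures. In sorted cells the limits were 1 and 0.05. Counts at these thresholds therefore rest on another measure than the calls at an adjusted p. The mouse number pairs sorted samples because both tumours and both compartments came from the same animals, so the block is the mouse there. Some results on other pathway genes are not reported here.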

Additional observations from a re-analysis of the deposited data

Results flagged for a closer look

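For 15 of 161 groups of 4 libraries examined, 1 library stood apart from the other 3 by Dixon's ratio, where chance gives about 1 in 20 (8.05). 5 of the 15 were peritoneal tumour cells of mouse 1, the library with the highest fibroblast and leukocyte marker sums of its group: Inhbb held 3.62 CPM there against 0.332 to 0.422 in the others, Tgfbr3 6.93 against 0.516 to 1.07, Eng 16.9 against 4.22 to 6.16, Fstl1 65.7 against 7.49 to 10.3 and Fstl3 57.9 against 43.2 to 45.5 CPM. All 5 were high in that library.

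In peritoneal stroma, Gdf10 was high in mouse 1 (27.3 CPM against 14.2 to 16.4), Acvr2b and Smad1 were high in mouse 2 (9.84 against 8.33 to 8.49 and 51.9 against 43.8 to 44.0), Id2 was low in mouse 2 (143.9 against 215 to 221) and Fstl1 low in mouse 4 (1536 against 2341 to 2451). In liver tumour cells, Ltbp4 was low in mouse 1 (75.7 against 138 and 138), Smad1 high in mouse 3 (43.6 against 38.8 to 39.5) and Bmpr1a low in mouse 4 (76.6 against 98.9 to 99.6). Ltbp4 was also high in peritoneal tumour cells of mouse 4 (180.8 against 101 to 104), and Acvr1b low in liver stroma of mouse 1 (63.8 against 85.3 to 88.8).

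For 15 members the difference between liver and peritoneum was not the same in tumour cells and in stroma (edgeR interaction, adjusted p under 0.05 over all genes). Values above 0 were those of Tgfb2 (1.42), Tgfb3 (0.74), Ltbp1 (1.49), Ltbp2 (1.27), Ltbp3 (0.60), Bmp1 (1.47), Tgfbr2 (0.84), Bmpr1a (0.98), Fst (2.68), Fstl3 (0.94), Smad1 (0.41) and Smad5 (0.51), and values below 0 those of Tgfb1 (-0.75), Smad6 (-1.92) and Id1 (-1.58), on the log2 scale.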

How the results depend on the processing

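No called value changed sign under any alternative. The count of called members in RasLOW was 3, and it was 6 without a filter on low counts, 10 with DESeq2, 16 with all 25 libraries in 1 fit, 1 with lane as a covariate and between 1 and 13 with each library left out. In RasHIGH it was 15, against 8 with the study's thresholds, 5 with lane and 13 to 19 with a library left out. Between RasHIGH and RasLOW it was 0, against 1 with the study's thresholds, without a filter or with DESeq2, 5 with all libraries and 0 to 0 with a library left out. Between tumour cells of both sites it was 3, against 5 with the study's thresholds, 6 with DESeq2, 1 with the mouse as a block and 0 to 5 with a library left out. The stromal site comparison gave 26, against 17 with the study's thresholds, and 26 to 27. Liver tumour cells against stroma gave 34 (33 to 35), the peritoneal comparison 38 (36 to 38), and the interaction 15 (12 to 17), against 7 with all libraries. The mouse block gave 28, 35, 38 and 19 for these 4. RLE factors moved the median of all genes in the peritoneal comparison of tumour cells with stroma from 0.07 to -0.07. In the cultures the replicate number does not pair samples (correlations of deviations between -0.69 and 0.35), and a block on it gave 2, 15 and 0 calls. Among single members, 1092 values kept their call with a library left out and 64 lost it, and with DESeq2 130 kept it and 1 lost it, 3 others having no adjusted p. Causes of these changes were not tested. The counts under the alternatives are given without the share of all genes called in the same fit. Their rises and falls are therefore no result about the members. Members with few or no counts, such as Gdf10 and Bmpr1b in cultures, are limited by depth.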
